A study of Rattus norvegicus with 12 samples.

Results

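The collapsin response mediator proteins (CRMPs) and the kinases that phosphorylate them were followed in PC12 cells, a rat pheochromocytoma line, after addition of the neuropeptide PACAP38 (pituitary adenylate cyclase-activating polypeptide). The 9 genes were the CRMP genes Crmp1, Dpysl2 (CRMP2), Dpysl3 (CRMP4), Dpysl4 (CRMP3) and Dpysl5 (CRMP5), the kinase genes Gsk3a, Gsk3b and Cdk5, and Cdk5r1, whose product p35 activates Cdk5. Every non-control probe carrying one of these symbols was taken, which gave 12 probes of 41012 on the array and 9 genes of 33212 names. PC12 cells treated with PACAP38 at 1e-07 M were sampled at 6 time points from 5 to 120 min (5, 10, 15 and 30 min, then 60 and 120 min) and compared with control PC12 cells of the same time point on 12 Agilent whole rat genome arrays with 2 colours. RNA of each group was a pool (n = 6), and the 2 arrays of a time point held the same pools with Cy3 and Cy5 exchanged, so each time point was 1 replicate and no single time point could be tested.

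CRMPs are cytosolic phosphoproteins of growing neurites. CRMP2 binds tubulin dimers and promotes neurite extension, and phosphorylation by Cdk5, followed by GSK-3β at neighbouring sites, or by ROCK at a separate site, lowers that binding. The study asked how PACAP38 brings about dephosphorylation of CRMP2 during neurite outgrowth, and the arrays address the transcript side of that question only, since they measure neither protein nor phosphorylation.

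Dpysl2 and Gsk3b were the genes with more than 1 probe, and their probe sequences are shown because the comparison within these genes rests on which stretch of the transcript each probe reads. The sequences come from the scanner files, positions are on rat build rn4, and capitals mark every TAA, TAG or TGA triplet in any of the 3 reading frames. For the probes lying farther 3′ the first 30 of 60 bases are printed.
Dpysl2 A_44_P271741, chr15:46356176-46356235, minus strand: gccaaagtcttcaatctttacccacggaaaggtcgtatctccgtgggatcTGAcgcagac
Dpysl2 A_44_P311647, chr15:46346447-46346506, minus strand: tggTAAaatacaagtctcgtgtttattatt
Gsk3b A_42_P620042, chr11:64302294-64302353, minus strand: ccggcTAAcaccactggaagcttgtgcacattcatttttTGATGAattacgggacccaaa
Gsk3b A_43_P13557, chr11:64280352-64280411, minus strand: TGAacacgtttctcccctgtaTGAaaagta
Gsk3b A_44_P1012668, chr11:64279828-64279887, minus strand: gtgcaaatctgtctTGAtaTAAaggaaaag
Over the whole 60 bases, both Dpysl2 probes had stop triplets in 1 reading frame, with 1 such triplet in the upstream and 3 in the downstream probe. The upstream Gsk3b probe had them in 2 frames and both downstream Gsk3b probes in all 3. No exon or UTR annotation of this build was used here. The sequences show that no probe pair of a gene reads the same bases, so probes of 1 gene may report different transcript ends.

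The other members had 1 probe each. On rn4 the Crmp1 probe lay at chr14:79084445-79084504, the Dpysl3 probe at chr18:36631742-36634515, the Dpysl4 probe at chr1:198881771-198881830 and the Dpysl5 probe at chr6:25559026-25559085. The Gsk3a probe lay at chr1:80506824-80506970, the Cdk5 probe at chr4:6120599-6120761 and the Cdk5r1 probe at chr10:68716155-68716214. The Dpysl3, Gsk3a and Cdk5 probes covered 2774, 147 and 163 bases of the genome with 60 bases of sequence. The Gsk3b probe A_42_P620042 and the Cdk5 probe were printed on 10 spots per array, and the other probes on 1.

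The arrays of the whole series held 45018 spots, 1639 of them control spots of the array. The channel of control RNA was flagged well above background on 38.4 to 49.6% of the other spots. Of 8 genes of catecholamine cells fixed as markers of PC12, 7 were on the array and all 7 had a probe well above background in control RNA on all 12 arrays. Of 10 marker genes of fibroblasts, Schwann cells, leukocytes and adrenal cortex, 8 were above background in control RNA on none. The exceptions were the fibroblast markers Col1a1, with 1 probe above background in control RNA on all 12 arrays, another on 9 and the last on 0, and Dcn, on 5 arrays. The immediate early genes Egr1, Fos and Nr4a1 were called higher at every time point from 10 min, with Egr1 at 67.7-fold and 34.9-fold on the 2 arrays of 60 min.

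In untreated cells, CRMP and kinase transcripts were detected for 7 of the 9 genes on every array, and the exceptions were Dpysl4 and Cdk5r1. Detection here means that a probe's control signal was flagged well above background. Signals are processed intensities in arbitrary units, and since probes differ in how they bind, signals of different probes, also of 1 gene, cannot be read as relative amounts. Dpysl2, which encodes CRMP2, gave a control signal of 7634, 10180 and 15670 (lowest, median and highest of 12 arrays) at A_44_P311647. At the upstream probe A_44_P271741 the control signal was 35.5, 53.7 and 80.5.

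**Figure D1:**
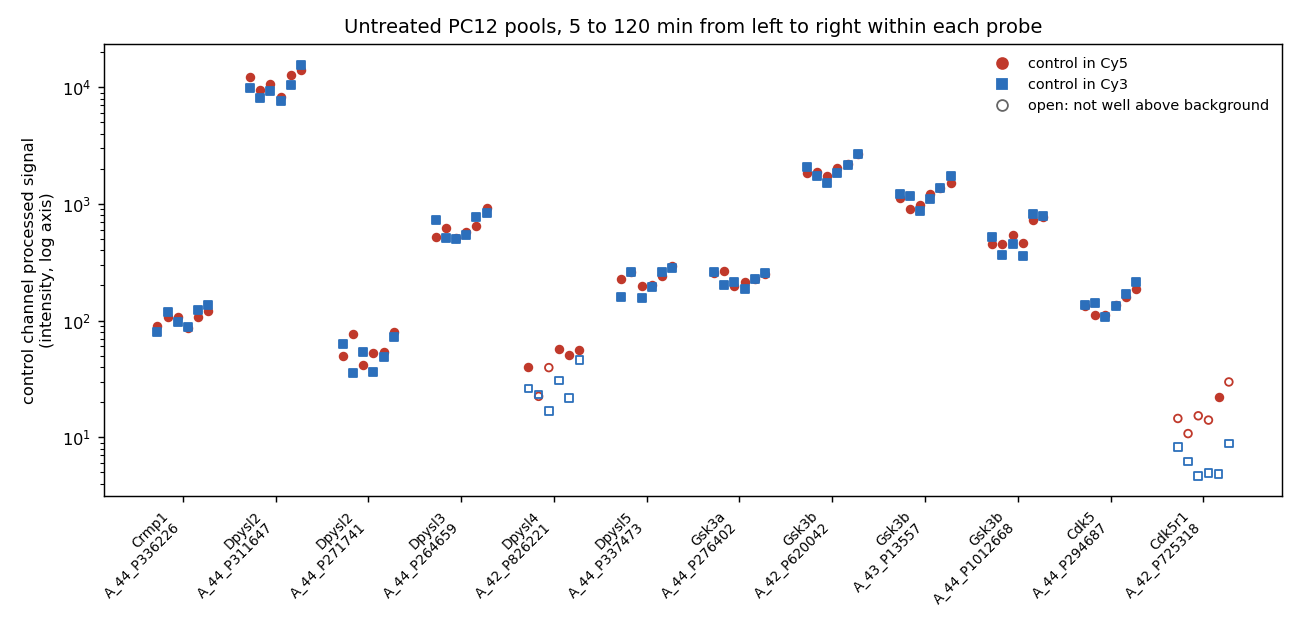
Processed signal of the control channel (log axis) for the 12 probes, with the 6 control pools from 5 min on the left to 120 min on the right within each probe and both dye orientations shown. Dpysl4 and Cdk5r1 lie near background, and control RNA was brighter in Cy5 (red) than in Cy3 in 5 of 6 pools for Dpysl4 and in all 6 for Cdk5r1.

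The other CRMP genes spanned a range of signals. Dpysl3, which encodes a CRMP tied to growth cone actin, gave 499, 600 and 923 (lowest, median and highest). Dpysl5, the CRMP most distant in sequence from the others, gave 157, 233 and 293. Crmp1 gave 79.5, 106 and 135. Dpysl4 lay near background at 16.9, 35.0 and 57.2, and was well above background in 4 of 12 control channels. All 4 of those held control RNA in Cy5, and over both RNAs the Dpysl4 probe passed in 8 of 12 Cy5 channels and 1 of 12 Cy3 channels.

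Among the kinases, Gsk3b was detected by all 3 of its probes on every array. Its control signal was 1523, 1964 and 2699 at A_42_P620042, 869, 1191 and 1748 at A_43_P13557 and 361, 489 and 822 at A_44_P1012668. Gsk3a, the paralog with an extended N-terminus, gave 186, 227 and 266. Cdk5, a kinase active with p35 or p39 rather than with a cyclin, gave 108, 136 and 215. Its activator Cdk5r1 gave 4.67, 9.78 and 29.8 and passed the background flag in 1 of 12 control channels and in 0 of 12 PACAP38 channels, so its transcript was not measurable here and no fold of it is given or plotted. The flag bounds neither the amount of p35 protein nor a transcript end that this probe does not read.

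Spread between the control pools differed from probe to probe. On a log2 scale centred on each channel's median over probes, the SD over the 6 control pools was 0.06 for Gsk3b A_42_P620042, 0.08 for Dpysl3, 0.08 for Cdk5 and 0.09 for Gsk3b A_43_P13557. It was 0.22 for Dpysl2 A_44_P311647 and 0.31 for Gsk3b A_44_P1012668. These values moved with the scaling. With 75th percentile scaling the SD was 0.19 for Gsk3b A_44_P1012668 and 0.11 for Gsk3b A_42_P620042, and with the mean signal minus local background the 4 low SDs became 0.14 to 0.21. The median SD over the probes detected with both RNAs on every array was 0.16. Gsk3a was at 3.15 on this scale in the 120 min control pool and at 3.77 in the 5 min pool.

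No CRMP, GSK-3 or Cdk5 probe met the 2-fold rule at any time point. By this rule a probe was called when both arrays moved the same way, each to 2 times control or more, or to 0.5 times or less, and each with a spot p-value below 0.01. Between 10 and 11 member probes per time point were measured, meaning that at least 1 RNA was well above background on both arrays, and 0 were called at each of the 6. Of all measured probes, the called share was 0.0% for 5 min, 0.158% for 10 min, 0.277% for 15 min, 0.839% for 30 min, 2.57% for 60 min and 7.61% for 120 min. With a background of 7.61% at most and 10 or 11 probes, a count of 0 members does not set them apart from other probes. The count was also 0 with either array alone, with a limit of 1.5-fold, and with no limit on p. At 120 min the median log2 fold of the measured member probes was 0.11 (range −0.11 to 0.35), beside a median of −0.03 and quartiles of −0.36 and 0.24 over all measured probes. That direction depended on the scaling. The normexp settings used here and below add an offset of 50 to both channels, which draws the ratios of dim probes toward 0. With normexp background correction the member median at 120 min was 0.05 with loess (all measured probes −0.01) and −0.04 with median centring (all measured probes −0.11), where 9 of the 10 member probes lay below 0.

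The ratios of Dpysl2 split by dye. At A_44_P311647 the log2 folds with PACAP38 in Cy5 were 0.22, 0.28, 0.19, 0.12, 0.33 and 0.11 from 5 to 120 min. With PACAP38 in Cy3 they were −0.37, −0.20, −0.25, −0.09, −0.10 and −0.23. The sets do not overlap, and the brighter RNA was the one in Cy5 on all 12 arrays. Averaged over the 2 arrays, the log2 folds lay between −0.07 and 0.11, and between −0.27 and 0.24 with normexp and median centring. Over the 6 time points the mean log2 fold was 0.00022 (limma, SE 0.045, 95% confidence interval −0.11 to 0.11), which is a fold of 1.00 with an interval of 0.929 to 1.08.

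Dye differences of this kind were common on the arrays. The difference of the arrays of a time point divided by 2, a measure of dye chosen after the values were seen, was on average 0.21 for A_44_P311647 (limma adjusted p = 0.0029) and 0.37 for A_44_P271741 (limma adjusted p = 0.0199). Dpysl4 stood at 0.53 (limma adjusted p = 0.0059) and Cdk5 at −0.11 (limma adjusted p = 0.0449), in the direction of Cy3. These were 4 of 11 member probes, beside 39.5% of all 20203 probes fitted. Cy5 was above Cy3 on all 12 arrays for 5.43% of the fitted probes, Dpysl2 A_44_P311647 among them.

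**Figure D2:**
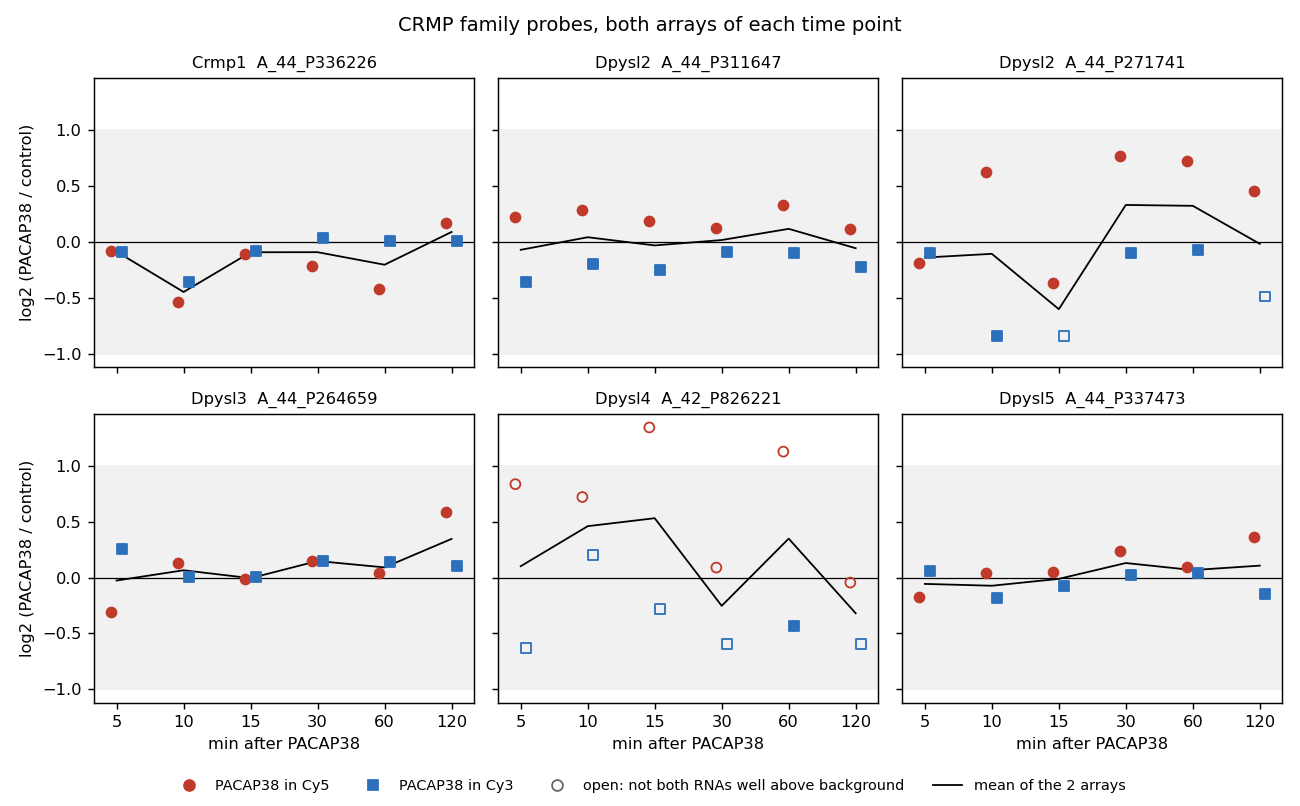
Log2 ratio of PACAP38 to control by time for the 6 CRMP probes, with PACAP38 in Cy5 (red circles), PACAP38 in Cy3 (blue squares) and their mean (line); grey marks less than 2-fold and open symbols mark arrays without both RNAs well above background. At Dpysl2 A_44_P311647 every red point lies above 0 and every blue point below it, and the mean stays between −0.07 and 0.11.

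The upstream Dpysl2 probe varied more. Its log2 folds with PACAP38 in Cy5 were −0.19, 0.62, −0.37, 0.76, 0.72 and 0.45 in time order. The same pools with PACAP38 in Cy3 gave −0.10, −0.84, −0.84, −0.11, −0.08 and −0.49. PACAP38 RNA was not well above background on the Cy3 arrays of 15 and 120 min. Both arrays pointed the same way at 5 and 15 min only. The mean over the time points was −0.04 (limma, SE 0.13, 95% confidence interval −0.34 to 0.26). Its dye-averaged log2 folds, −0.60 to 0.33 here, lay between −0.05 and 0.07 with normexp and either loess or median centring. The 2 Dpysl2 probes differed most at 15 min, by 0.57, and differed by 0.04 on average (SD 0.31 over the time points).

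Dpysl3 had the single member ratio below the spot p limit of 0.01. That ratio, on the 120 min array with PACAP38 in Cy5, was a log2 fold of 0.59, and the array with PACAP38 in Cy3 gave 0.10. From 10 to 60 min its log2 folds lay between −0.01 and 0.15 on all 8 arrays, and at 5 min they were −0.31 and 0.25. Both arrays of 10, 30, 60 and 120 min were above 0, and those of 5 min disagreed in sign. The slope of its log2 fold was 0.07 per doubling of time (limma, SE 0.028, 95% confidence interval −0.0016 to 0.14), and its adjusted p of 0.18 did not pass the test. Without 120 min the slope was 0.04, and with normexp and median centring it was −0.02.

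Crmp1 was lower with PACAP38 on both arrays at 10 min, at log2 folds of −0.54 and −0.36. On all 4 arrays of 5 and 15 min it lay between −0.11 and −0.08. The 60 min arrays stood at −0.42 and 0.01, and those of 120 min at 0.17 and 0.00. The dye-averaged value was below 0 at 5 of 6 time points, and the mean of −0.14 (limma, SE 0.072, 95% confidence interval −0.31 to 0.03, adjusted p = 0.538) did not pass the test. Without 10 min the mean was −0.08, and with normexp background correction it was −0.03 with either loess or median centring, where the 10 min log2 fold, −0.45 here, was −0.13 and −0.11. Dpysl5 lay between −0.19 and 0.36 on all 12 arrays, with a mean of 0.03 (95% confidence interval −0.09 to 0.14). Dpysl4, measured at 5 and 60 min only, had log2 folds of 0.83 and −0.63 and of 1.12 and −0.43, again with Cy5 the brighter dye, and its dye-averaged values there, 0.10 and 0.35, lay within −0.0094 to 0.012 with normexp and either scaling. Neither array had control RNA well above background at 10 and 15 min, nor PACAP38 RNA at 30 and 120 min, and the bounds there were at least 1.01-fold or at least 1.02-fold.

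Gsk3a had the steepest slope over time of the member probes fitted. GSK-3α and GSK-3β are kept active in resting cells and are inhibited by phosphorylation through Akt and other kinases, so their activity can change with no change in transcript. Gsk3a log2 folds with PACAP38 in Cy5 were −0.46, −0.17, −0.06, 0.43, 0.20 and 0.51 in time order. With PACAP38 in Cy3 they were 0.02, −0.49, 0.06, 0.00, 0.22 and 0.18. Both arrays were below 0 at 10 min, and both were above 0 at 60 and 120 min. The fold at 120 min was 1.42 and 1.14 on the 2 arrays. The slope was 0.14 per doubling of time (SE 0.035, 95% confidence interval 0.06 to 0.23), with a limma adjusted p of 0.0847 over 20203 probes.

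**Figure D3:**
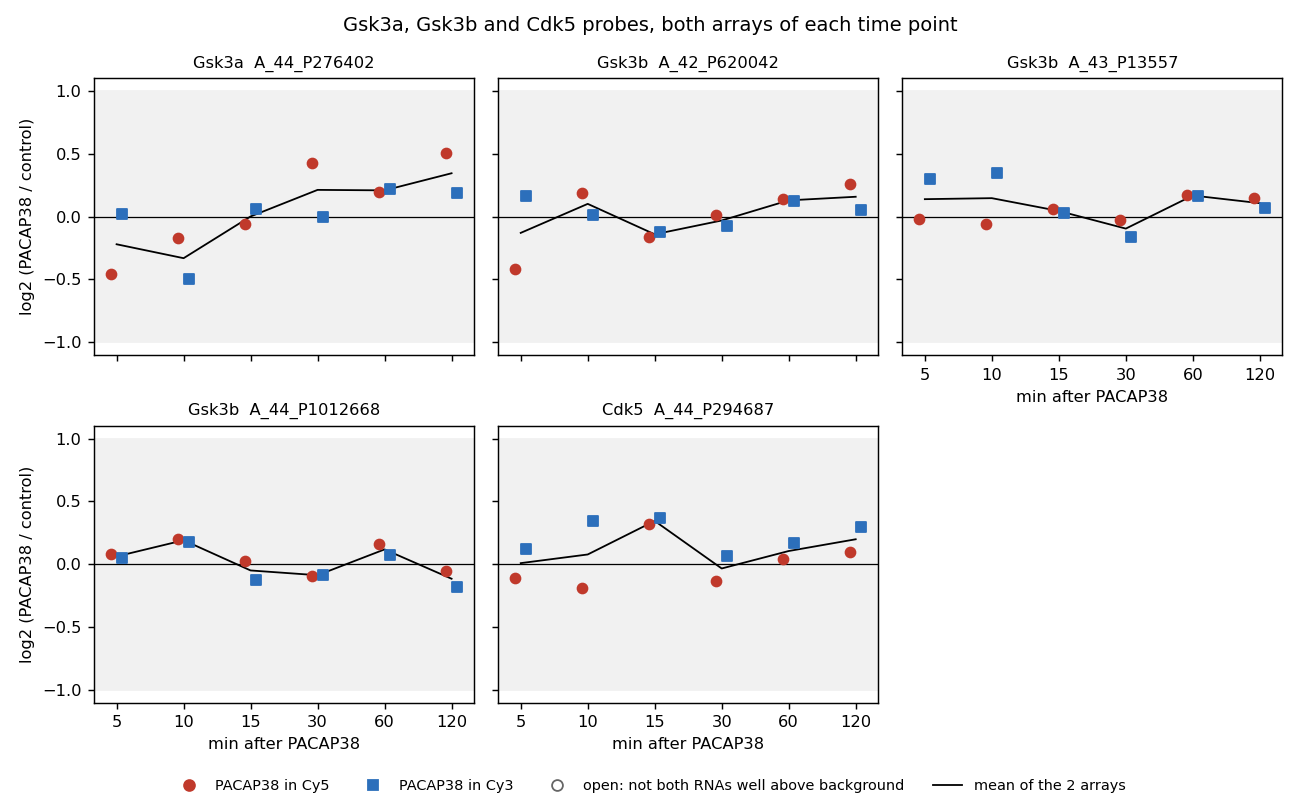
Log2 ratio of PACAP38 to control by time for the probes of Gsk3a, Gsk3b and Cdk5, drawn with the symbols used for the CRMP probes (PACAP38 in Cy5 as red circles, PACAP38 in Cy3 as blue squares, mean as a line, open where not both RNAs were well above background). Gsk3a runs from a mean of −0.33 at 10 min to 0.35 at 120 min. The means of the 3 Gsk3b probes stay within −0.14 to 0.19, and their single arrays within −0.42 to 0.35.

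Slides and times ran together, since 5 and 10 min shared a slide, as did 15 and 30 min, and 60 and 120 min. The mean Gsk3a log2 fold was −0.28, 0.11 and 0.28 on the 3 slides in that order. Within slides the later time point differed from the earlier by −0.11, 0.21 and 0.14. With slide as a block the slope was 0.08 (SE 0.12, limma adjusted p = 0.925). Of all fitted probes, 0.728% passed the slope test (147 of 20203) and 28.7% had an unadjusted p below 0.05, beside 0 and 1 of the 11 member probes fitted. When probes without both RNAs well above background throughout were left out, the adjusted p of Gsk3a was 0.0493. In that setting 976 of all 13939 probes passed the slope test. With normexp background correction the Gsk3a slope was 0.04 with loess (limma adjusted p = 0.159) and 0.01 with median centring (limma adjusted p = 0.74). Its log2 fold at 120 min, 0.35 here, was 0.07 and −0.02 on those settings.

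Gsk3b was read at 3 places. At A_42_P620042, the mean of up to 10 spots, the dye-averaged log2 folds were −0.13, 0.10, −0.14, −0.03, 0.13 and 0.16 in time order. A_43_P13557 lay between −0.10 and 0.17 and A_44_P1012668 between −0.11 and 0.19. With normexp and median centring the ranges were −0.12 to 0.23, −0.17 to 0.28 and −0.31 to 0.18 in the same order of probes, and all 3 probes were at their lowest and below 0 at 120 min. With the processed signal the 3 probes never differed by more than 0.27, and the largest difference, between A_42_P620042 and A_44_P1012668, was at 120 min. Their means over the time points were 0.01 (95% confidence interval −0.13 to 0.16), 0.09 (−0.03 to 0.21) and 0.02 (−0.11 to 0.16). The SD of the log2 ratio over the spots of 1 array was 0.02 to 0.06, although the control signal of the brightest spot was up to 2.33 times that of the dimmest. Outlier spots, 21 over the 12 arrays, were left out of both values.

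Cdk5 was above 0 with PACAP38 in Cy3 on all 6 arrays, at log2 folds of 0.12, 0.35, 0.37, 0.07, 0.17 and 0.30 from 5 to 120 min. With PACAP38 in Cy5 it was at −0.11, −0.19, 0.32, −0.14, 0.04 and 0.10. Both arrays were above 0 at 15, 60 and 120 min. The mean over the time points was 0.12 (limma, SE 0.061, 95% confidence interval −0.03 to 0.26, adjusted p = 0.538), a fold of 1.08 with an interval of 0.982 to 1.20. That mean was 0.07 without 15 min, 0.04 with normexp and either loess or median centring, 0.0051 with PACAP38 in Cy5 alone and 0.23 with PACAP38 in Cy3 alone. Its SD over the spots of 1 array was 0.06 to 0.20, with outlier spots (15 over the 12 arrays) left out.

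No member had a mean log2 fold that passed the test. Of all fitted probes 0.0% did, with 1845 of 20203 at an unadjusted p below 0.05 against 0 of the 11 member probes. The treatment check genes Egr1, Fos and Nr4a1 did not pass it either (limma adjusted p = 0.419, 0.301 and 0.489), so a mean that did not pass says little about the members. Their means ran from −0.14 to 0.12 apart from Dpysl4, whose mean of 0.14 (95% confidence interval −0.17 to 0.46) includes ratios near background at the 4 time points where only a bound could be given.

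**Figure D4:**
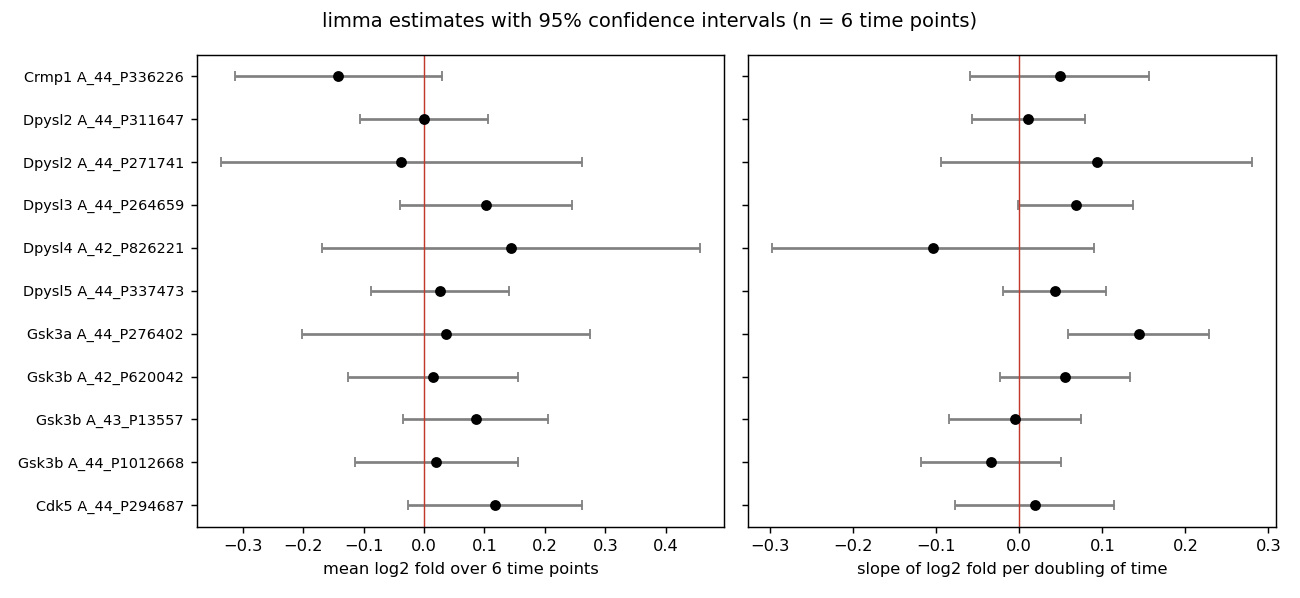
Mean log2 fold over the 6 time points (left) and slope of the log2 fold per doubling of time (right) for the 11 member probes fitted, with limma's 95% confidence intervals. All intervals of the mean include 0, and the interval of the slope leaves out 0 for Gsk3a alone (0.06 to 0.23), before adjustment over 20203 probes.

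The likeness of patterns was ranked for the gene whose brightest probe had the widest range over time. That gene was Cdk5r1, which was not measurable, and the next, Dpysl4 (0.85), was measured at 5 and 60 min only. Gsk3a (range 0.68), the widest of the genes whose brightest probe was measured at every time point, was taken instead after the values were seen. Of 4187 brightest probes with a range at least as large, 87 had a Pearson r above 0.9 with Gsk3a over the 6 time points. The 3 highest were AA818012 (r = 0.979), ENSRNOT00000063781.3 (r = 0.976) and Hoxb9 (r = 0.975). All points share arrays, slides and pools, so these values are a description.

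Genes that act on the same proteins were taken as 6 lists, for small GTPases and ROCK, Cdk5 partners, other CRMP kinases, phosphatases, GSK-3 regulators and CRMP partners. Of their 77 probes measured at 120 min, 5 were called, or 6.49%, beside 7.61% of all measured probes. In the list of GTPases and ROCK 1 of 6 probes fitted was called higher at 120 min and 0 lower, where 4.24% of all measured probes were called higher. Rhob, an inducible small GTPase, reached 3.90-fold and 2.94-fold on the 2 arrays of 60 min and 3.61-fold and 3.28-fold on those of 120 min, the Cy5 array named first here and in the pairs that follow. Its slope was 0.41 per doubling of time (limma, adjusted p = 0.0418), with an adjusted p of 0.894 with slide as a block and of 0.0595 to 0.139 with any 1 time point left out. Rhoa and Rhoc, which share effectors with RhoB, and the kinases Rock1 and Rock2 were called at no time point. Over their probes measured at 120 min the log2 folds then ran from −0.42 to 0.38. Both ends were probes of Rhoa, so its probes disagreed.

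The GSK-3 regulators held 3 of the 5 calls at 120 min. Of their 10 probes measured then 3 were called lower and 0 higher, where 3.37% of all measured probes were called lower, and the list's median log2 fold was −0.38, beside −0.03 over all measured probes. The list was chosen with earlier results of these data known and holds Axin2, which the study reported as lowered. These values therefore only describe the list. Axin2, a scaffold that brings GSK-3 to β-catenin, fell to 0.306-fold and 0.286-fold by 60 min and to 0.224-fold and 0.192-fold by 120 min at its brighter probe, and the slope there of −0.55 (limma, adjusted p = 0.0739) did not pass the test. It passed with time in minutes (limma adjusted p = 0.00632), for late against early times (0.00859) and with both RNAs well above background throughout (0.0424). Over all probes these settings called 5335 of 20203, 590 of 20203 and 976 of 13939, beside 147 of 20203 in the main fit. The Axin2 slope was −0.25 with normexp and loess (limma adjusted p = 0.0662), −0.30 with median centring (0.0878) and −0.20 with slide as a block (0.894). The dimmer Axin2 probe was called at 60 min, at 0.407-fold and 0.0936-fold, but stood at 0.981-fold and 0.103-fold at 120 min, where its arrays disagreed and it did not count as measured. Its mean fold at 60 min, 0.195 here, was 0.834 with normexp and loess and 0.844 with median centring. Frat2, a GSK-3 binding protein, was at 0.466-fold and 0.422-fold at 120 min, and its mean fold of 0.444 became 0.701 with normexp and loess and 0.637 with median centring. Pik3r1, the p85α subunit of PI3 kinase upstream of Akt, stood at 0.492-fold and 0.412-fold on one probe and at 0.509-fold and 0.575-fold on a dimmer one, which was not called, both for 120 min. Akt1, Akt2, Axin1, Gskip and Pik3ca were called at no time point.

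Of the other CRMP kinases 1 of 15 probes measured at 120 min was called lower then and 0 higher, which is near the 3.37% of all measured probes called lower. Dyrk2, a kinase that primes CRMPs for GSK-3, stood at 0.499-fold and 0.402-fold on its brightest probe after 120 min, and at 0.507-fold and 0.615-fold at the next, which was not called. A dimmer Dyrk2 probe, detected in control RNA on all 12 arrays, stood at 1.07-fold and 0.849-fold at 120 min, so its probes disagreed. Dyrk1a stood at 1.43-fold and 1.90-fold at one probe and at 0.801-fold and 0.746-fold at a brighter one, and its probes disagreed too. Among Cdk5 partners 0 of 4 probes were called, and the lowest at 120 min were the brightest Cdk5rap2 probe at 0.504-fold and 0.539-fold and Cdk5rap1 at 0.541-fold and 0.591-fold. Another Cdk5rap2 probe stood at 0.671-fold and 1.59-fold, so its arrays disagreed. Phosphatases (23 probes fitted) and CRMP partners such as tubulin, kinesin and plexin genes (19 probes fitted) had 0 calls, where a share of 7.61% of all measured probes was called at 120 min. The log2 fold farthest from 0 at 120 min was 0.61 among the phosphatases, at 1 of 5 probes of Ppp3ca, a calcineurin subunit, whose other probes lay between −0.03 and 0.19. Among the CRMP partners it was −0.82, for Plxna1, a semaphorin receptor. The calls of these lists depended on the signal used. The 8 calls over 60 and 120 min became 1 with normexp background correction and loess and 0 with normexp and median centring. Both settings add the offset of 50 that draws ratios of dim probes toward 0, and its part in the lost calls was not tested. On these settings Rhob stood at 2.04-fold and 1.83-fold at 120 min, and the brighter Axin2 probe at 0.508-fold and 0.462-fold, against 3.44-fold and 0.207-fold with the processed signal. The called Dyrk2 and Pik3r1 probes lost their calls with median centring at about the same mean fold, 0.445 and 0.475 against 0.448 and 0.450.

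**Figure D5:**
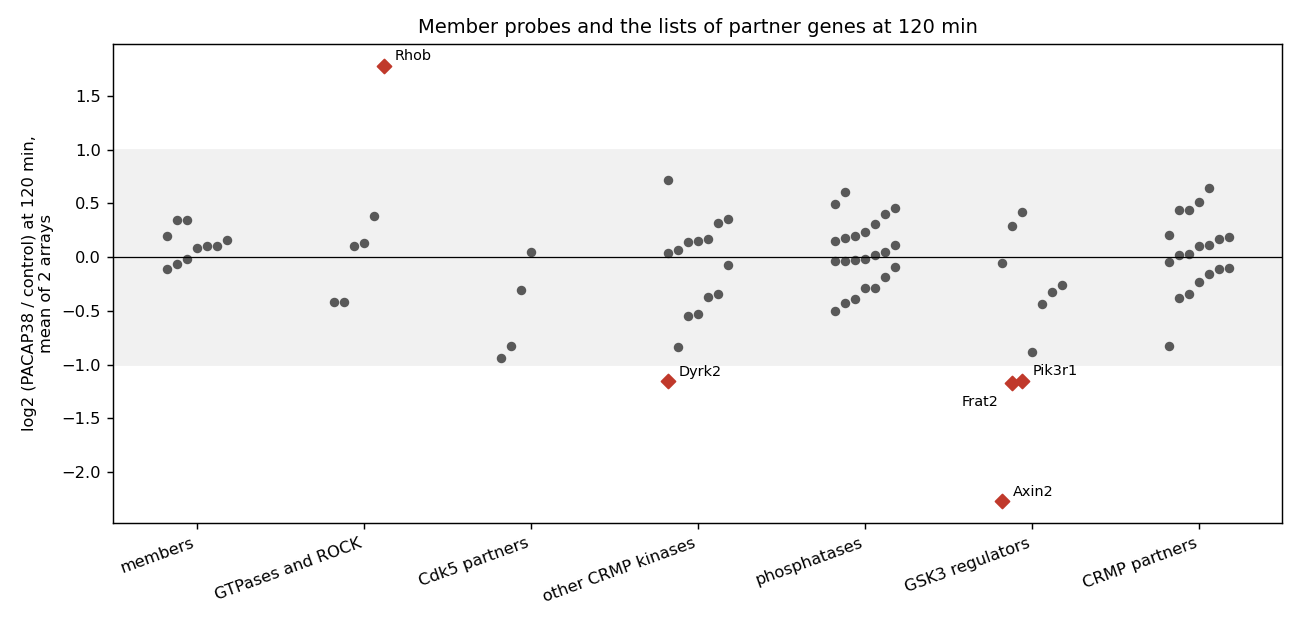
Log2 ratio of PACAP38 to control at 120 min, averaged over the 2 arrays, for each measured probe of the members and of the 6 lists, with called probes as red diamonds and the range below 2-fold in grey. With the processed signal all 10 measured member probes lie between −0.11 and 0.35 (−0.31 to 0.01 with normexp and median centring), while Rhob lies at 1.78 and Axin2 at −2.27.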

How the data were processed

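Processed Cy3 and Cy5 intensities were deposited by the authors as made by Agilent Feature Extraction (background-subtracted, detrended and LOWESS dye-normalized within each array), together with mean and local background intensities of the scanner. Its version is 11.0.1.1 in the submitters' processing notes, and the file headers and methods name others. The p-value deposited for each spot comes from the software's error model. The deposited log10 table equalled log10 of processed Cy5 over Cy3 and was not turned for the dye exchange.

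Processed intensities were turned into log2 ratios of PACAP38 over control by each array's dye orientation. Control and outlier spots were left out, spots of a probe were averaged, and the 2 arrays of a time point were averaged before any fit. Basal levels were log2 control signals minus the channel's median. Slopes on log2 time and means over the 6 time points were fitted with limma 3.58.1 in R 4.3.3 over the 20203 probes measured at 1 time point or more (at least 1 RNA well above background on both its arrays), with Benjamini-Hochberg adjustment at 0.05. The fits were tested on simulated data. The number of arrays limits the precision, and with pooled RNA the p-values measure the spread between time points. In bulk RNA, fewer cells and less RNA per cell cannot be told apart. Where neither array had an RNA well above background, the fold against it is a bound from per-channel values after loess and Aquantile, open to dye bias.

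Genes named outside the members are those called at any time point or past a limma threshold, plus up to 3 of each list with the largest absolute log2 fold at 120 min, the treatment check (Egr1, Fos, Nr4a1) and the 3 genes most like Gsk3a in pattern. Col1a1 and Dcn, the exceptions among the markers of other cells, were named after their values were seen. Genes of these lists outside that rule are given as ranges or as not called. Members and lists were chosen with earlier results of these data known. Of the genes drawn up for the GSK-3 regulators, 2 are not reported here and were left out of that list's counts and median. All 9 member symbols were found in RefSeq. Alternatives were normexp (offset 50) with loess or median centring, the deposited table, 1 array per time point, other limits, filters and time scales, slide as a block, and each time point left out.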

Additional observations from a re-analysis of the deposited data

Results flagged for a closer look

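Of 24 sets of 6 values tested (basal level over the control pools and log2 fold over the time points, for 12 probes), 1 had a value far from the others, and chance flags about 1 set in 20. The basal level of Cdk5 in the 60 min control pool was 2.99 on the log2 scale centred on the channel's median, whereas the other 5 control pools lay between 2.79 and 2.84. The PACAP38 to control ratio of Cdk5 at 60 min, a log2 fold of 0.11, lay inside its range over the other time points.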

How the results depend on the processing

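No member probe was called at a time point under any of the 8 alternatives run. The deposited table holds the same ratios, and keeping the brightest probe of each gene only drops probes. Neither of these could have raised the count. Of the 9 member probes with both RNAs well above background throughout, 1 (Gsk3a) passed the slope test, beside 976 of all 13939. With PACAP38 in Cy3 arrays alone dye and treatment cannot be told apart. There 3531 of all 20203 probes passed the test of the mean, and 2 of the 11 member probes did. These were Cdk5 (0.23) and Dpysl2 A_44_P311647, whose mean turned to −0.21, while with each time point left out it ran from −0.023 to 0.015. The mean of Dpysl2 A_44_P271741 turned to 0.33 with PACAP38 in Cy5 alone, and with each time point left out it ran from −0.11 to 0.075, above 0 without 15 min only. The Dpysl3 slope turned to −0.0057 with PACAP38 in Cy3 alone and to −0.022 with median centring. The Rhob slope kept its sign and lost its call under most settings, with adjusted p from 0.0186 to 0.894. The 8 calls in the partner lists became 1 with normexp and loess, 0 with median centring, 20 and 14 with a single array and 15 at 1.5-fold. The slope calls over all probes, 147 here, were 153 without 5 min, 1 without 60 min and 0 without 10, 15, 30 or 120 min, 27 with loess, 1 with median centring, 3 and 29 with a single array, 976 with the stricter filter, 590 for late against early times, 5335 on minutes, and 0 with slide as a block or no filter. The mean calls over all probes, 0 here, were 2309 with PACAP38 in Cy5 alone, 3531 with PACAP38 in Cy3 alone and 15 without 5 min. Of 62 member log2 folds, 15 moved by more than the spread between arrays with loess and 25 with median centring, and 4 and 18 changed sign. The normexp offset in both settings draws dim probes toward 0, so smaller folds there are partly built in. The spread of the basal level moved by over 1.5 times for 2 of 12 probes (Gsk3b A_42_P620042 and A_44_P1012668) with 75th percentile scaling and for 8 with the mean signal minus local background. Signal near background limits Dpysl4, Cdk5r1 and the upstream Dpysl2 probe. PACAP38 and control RNA of a time point were paired on each array, and the labels carry no replicate numbers for a further block.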
